A study of Sus scrofa with 4 samples.

Results

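Granulosa cells (GCs) line the ovarian follicle and nourish the oocyte, and they remodel the matrix around them through secreted and membrane-bound proteases. Metalloproteases of the MMP, ADAM and ADAMTS families cut collagens, proteoglycans and cell surface proteins, and cathepsins degrade proteins mainly inside lysosomes. The tissue inhibitors of metalloproteases (TIMPs) and most of the serpins hold such enzymes, or the serine proteases that work beside them, in check. In the ovary these families are known for follicle growth, rupture at ovulation and the formation of the corpus luteum.

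The genes described here are all those in the probe annotation whose symbol starts with ADAM, with MMP and a digit, with TIMP and a digit or with SERPIN, together with the cathepsins named CTS and 1 letter, leaving out ADAMTS1. Of 75 such genes, 74 had a value on all 4 arrays, out of 9964 genes in all, and ADAMTS19 did not. They are 16 MMPs, 14 ADAMs, 15 ADAMTS and ADAMTS-like (ADAMTSL) genes, 8 cathepsins, 2 TIMPs and 19 serpins. A gene with several probes was represented by its brightest probe, and 66 of the 74 had 1 probe. TIMP1, CTSB, CTSD and CTSL were not analysed here.

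The cells were porcine GC monolayers, first grown in medium with serum and then kept with cumulus-oocyte complexes (COCs) through in vitro maturation (IVM). The NEFA group received non-esterified fatty acids (NEFAs), a mixture of palmitic, stearic and oleic acid, and the control group the same medium with equal BSA and ethanol in place of the acids. Both groups had EGF and follicular fluid throughout IVM, and FSH, LH and dibutyryl-cyclic AMP in its first part only. There were 4 biological replicates from separate days, each pooled from the wells of 1 plate, and both RNAs of a replicate shared 1 array in different dyes. The arrays are called A to D, in the order of replicates 1 to 4. Cells from follicular fluid can carry other follicle cells into the monolayer, and in bulk RNA fewer cells of a type and less RNA per cell cannot be told apart.

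Values are log2 ratios of NEFA to control, after background correction and normalization of the scanner intensities. A gene was counted as changed where limma gave an unadjusted p under 0.05 with at least 1.2-fold, the criterion of the study. The titles of the arrays and their channel fields name opposite dyes for the NEFA RNA on all 4 arrays. The channel fields were followed, which is not certain, and the titles would turn every sign below. Arrays A and B were labelled alike by both. Their red-to-green ratios nevertheless had r = -0.74 over all probes and r = -0.79 over the 74 genes. Array A was also opposed in red-to-green ratio to C and D over all probes (r = -0.32 and -0.30), where B was not (r = 0.41 and 0.32). Taken as NEFA over control as headed, over the 74 genes, B was opposed to C and D (r = -0.45 and -0.10). Array A was not (r = 0.29 and 0.03). The signs of arrays A and B are thus not settled either, and an exchange of B was not fitted. Each result is therefore given with the columns as headed, with the channels of array A exchanged and, where it matters, without array A, which is the same under both.

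A gene was taken as above background where its signal exceeded that of the negative control spots (mean plus 2 SD) on all 4 arrays in at least 1 of the groups. Per array and dye, 23.9% to 42.6% of all probes exceeded it. Of the 74 genes, 16 were above background (21.6%), against 2911 of 9964 genes (29.2%). They were MMP2 and MMP9 among the MMPs, and ADAM10, ADAM12, ADAM17 and ADAMDEC1 among the ADAMs. ADAMTS15, TIMP2, the serpins SERPINB1, SERPINF1 and SERPING1, and the cathepsins CTSA, CTSC, CTSH, CTSK and CTSS made up the rest. For the other 58 genes a ratio near 0 is a ratio of 2 weak signals and bounds no change. Of the granulosa markers 4 of 6 measured were above background (AMH, NR5A1, NR5A2 and FST), as were 5 of 9 fibroblast and smooth muscle markers (COL1A2, DCN, LUM, ACTA2 and TAGLN), 2 of 4 cumulus and 2 of 9 oocyte markers. None of 7 macrophage and blood cell markers, 4 endothelial markers or 4 theca and luteal markers was. The granulosa markers FSHR and CYP19A1 were not analysed here.

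With the columns as headed, none of the 74 genes passed the criterion in limma, and none had an unadjusted p under 0.05, where 0.803% of all genes passed (0.281% higher and 0.522% lower). The smallest adjusted p among them was 1.00. Of the 74, 48 had values above 0 and 26 below, where 4176 of all 9964 genes were above 0. The median was 0.03 against -0.02 over all genes, and the values ran from -0.23 to 0.32. Most of the values above 0 were weak signals, from 41 of the 58 genes not above background. Of the 16 above background 7 were above 0, with a median of -0.09, against -0.05 over all genes above background. With the channels of array A exchanged, 2 genes were higher with NEFAs, ADAMDEC1 and ADAMTSL3, and 0 were lower. This was 2.70% of the 74, where 4.16% of all genes passed (1.08% higher and 3.08% lower). The smallest adjusted p was then 0.715 in limma, and 31 of the 74 values turned sign. Without array A, 1 of 74 passed, ADAMDEC1, which was higher, where 3.12% of all genes did (0.733% higher and 2.39% lower). Of the 16 genes above background, 0 passed as headed and 1 exchanged (ADAMDEC1). Among all genes above background 0.344% were higher and 0.893% lower as headed, and 2.3% and 9.48% exchanged.

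**Figure D1:**
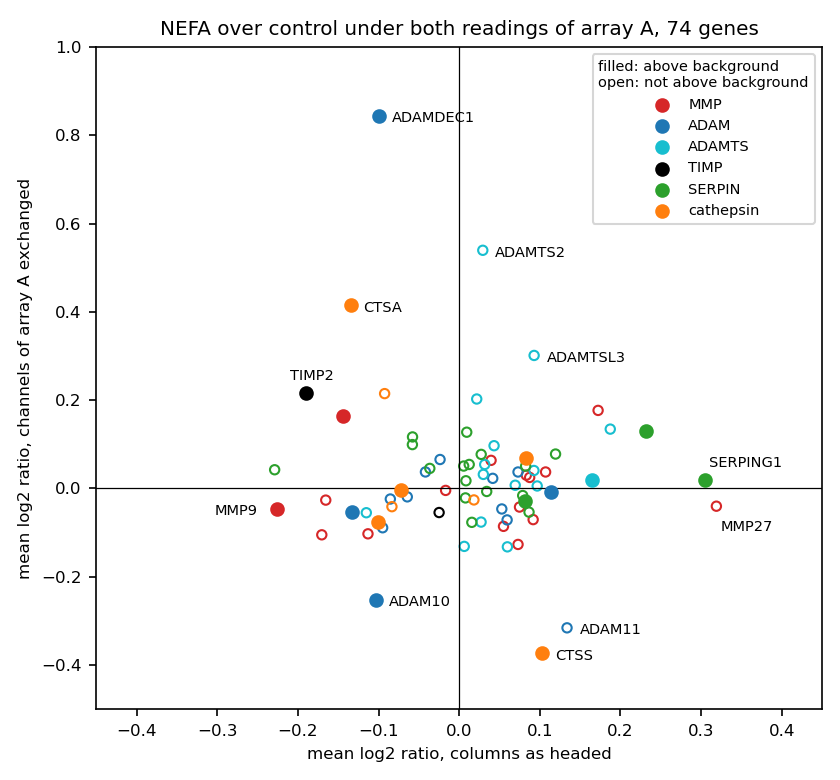
Mean log2 ratio (NEFA over control) for the 74 genes with the columns as headed (horizontal axis) and with the channels of array A exchanged (vertical axis), 1 point per gene, coloured by family, filled where the gene was above background. The horizontal spread runs from -0.23 to 0.32 and the vertical from -0.37 (CTSS) to 0.84 (ADAMDEC1), and 31 genes lie in the upper left or lower right field, where the sign turns.

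Among the ADAMs, ADAM10 is the sheddase that cuts Notch receptors and several adhesion proteins at the cell surface. Its log2 ratios as headed were 0.30 on array A, -0.21 on array B, -0.21 on array C and -0.28 on array D, and the mean was -0.10 (standard error 0.12, unadjusted p = 0.419 from limma). Array A stood apart from the other 3, which lay close together. With the channels of array A exchanged all 4 arrays were below 0, and ADAM10 had -0.25 (standard error 0.07, unadjusted p = 0.0130 and adjusted p = 0.715 from limma). This was 1.19-fold and so just short of the fold set by the criterion. Without array A the mean was -0.24 (standard error 0.10, unadjusted p = 0.0552 from limma). Its log2 levels were 12.19 to 13.48 in the control and 12.23 to 13.20 with NEFAs, so the arrays differed from each other by more than the groups did within an array. With array A exchanged, 1 sign on all 4 arrays was found for 8 of the 74 genes (10.8%), against 13% of all genes. Among the 16 genes above background it was found for 2 (12.5%), against 23.2% of all genes above background.

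ADAMDEC1 is an ADAM-like protease with a short form of the domain structure, known in human tissue mainly from macrophages and dendritic cells. Its log2 levels were 14.84, 13.60, 14.17 and 14.72 in the control on arrays A to D as headed, and 12.95, 14.60, 14.61 and 14.77 with NEFAs. The ratios were therefore -1.89, 1.01, 0.43 and 0.05, strongly below 0 on array A and above 0 on the other 3. As headed the mean was -0.10 (standard error 0.44). With array A exchanged ADAMDEC1 was higher on 4 of 4 arrays by 0.84 (standard error 0.29, unadjusted p = 0.0246 and adjusted p = 0.808 from limma), a 1.80-fold difference. Without array A it had 0.50 (standard error 0.19, unadjusted p = 0.0452 from limma). Without array B the exchanged value no longer passed (0.79, unadjusted p = 0.0713 from limma). The 7 macrophage and blood cell markers, none of them above background, had summed levels of 1697 to 1821 with NEFAs and 1628 to 1973 in the control over the 4 arrays as headed. The annotation pairs ADAMDEC1 with 1 probe, and its neighbour on the chromosome, the protease gene ADAM28, was not above background.

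The sheddase ADAM17, which releases TNF and the ligands of the EGF receptor, had ratios of -0.16, 0.07, 0.04 and -0.49 on arrays A to D. Only array D lay well below 0, and the mean was -0.13 as headed and -0.05 with array A exchanged. ADAM12, a protease of mesenchymal cells that cuts IGF-binding proteins, had ratios of 0.24, -0.19, 0.52 and -0.12, above 0 on arrays A and C and below on B and D. Its mean was 0.11 as headed and -0.01 exchanged. The remaining 10 ADAMs, among them ADAM9, ADAM15 and ADAM28, were not above background and had means of -0.09 to 0.13 as headed.

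Of the ADAMTS proteases, which cut proteoglycans and process procollagens, ADAMTS15 was the only one of 15 above background. ADAMTS15 degrades proteoglycans such as versican, a component of the expanding cumulus matrix. Its ratios were 0.29 on array A, -0.40 on array B, 0.73 on array C and 0.04 on array D. Arrays of both signs were thus present, and the mean was 0.17 as headed (standard error 0.18) and 0.02 exchanged. ADAMTSL3, a matrix protein of the same family that lacks the protease domain, was above background on 1 of 4 arrays in each group. Its ratios were -0.42, 0.44, 0.20 and 0.15, again with array A alone below 0. As headed it had 0.09, and with array A exchanged it was higher on 4 of 4 arrays by 0.30 (standard error 0.09, unadjusted p = 0.0133 and adjusted p = 0.723 from limma). That call was lost without array A (0.26, unadjusted p = 0.0586 from limma), without array B (0.26) and without background correction (0.21), where the fold fell short. As headed, 14 of the 15 ADAMTS genes had values above 0, with a median of 0.04, but 14 of the 15 were weak signals. With array A exchanged 11 of 15 were above 0 (median 0.03).

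**Figure D2:**
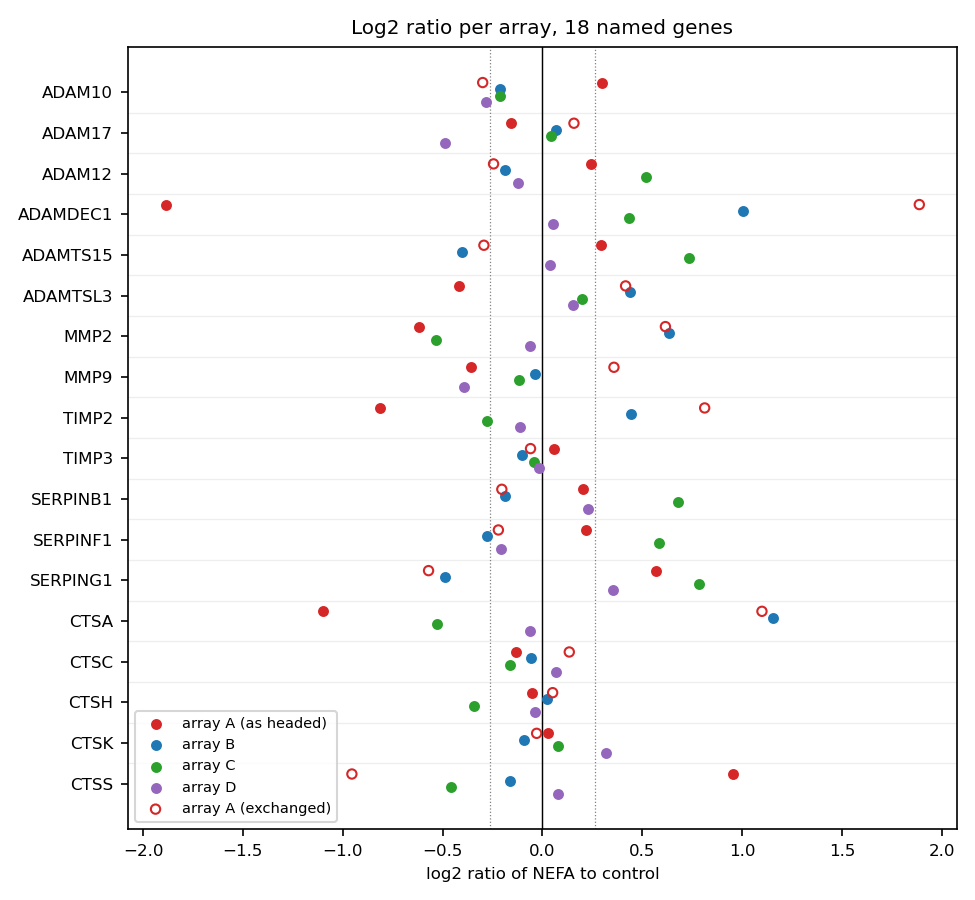
Log2 ratio of NEFA to control (horizontal axis) on each of the 4 arrays for the 18 genes named by rule, 1 row per gene, with filled points for the columns as headed, an open point for array A with its channels exchanged, and dotted lines at 1.2-fold in either direction. For ADAMDEC1, CTSA, TIMP2 and CTSS array A lies on the other side of 0 from array B, at -1.89, -1.10, -0.81 and 0.95, whereas MMP9 is below 0 on all 4 arrays.

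The gelatinases MMP2 and MMP9 cut denatured collagen and the collagen of basement membranes. MMP9 had ratios of -0.36, -0.04, -0.12 and -0.39 on arrays A to D. All 4 were below 0 as headed, and the mean was -0.23 (standard error 0.09, unadjusted p = 0.0533 from limma), a 1.17-fold difference that missed both parts of the criterion. With array A exchanged the mean was -0.05 (standard error 0.13), and without array A it was -0.18 (unadjusted p = 0.173 from limma). Over the 74 genes, 6 had 1 sign on all 4 arrays as headed (8.11%), against 7.67% of all genes, and MMP9 was the only one of them above background.

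MMP2 had ratios of -0.62, 0.63, -0.53 and -0.06. Array B alone lay above 0, by as much as array A lay below it. The mean was -0.14 as headed and 0.16 exchanged (standard error 0.21 each), and without array A it was 0.01. Its log2 levels were 12.97 to 13.25 in the control and 12.61 to 13.61 with NEFAs, and the groups overlapped. Of the other 14 MMPs, none above background, 10 had values above 0 as headed and 5 with array A exchanged. MMP27 had the highest mean of the 74 as headed (0.32, unadjusted p = 0.0766 from limma) and -0.04 exchanged; it was named after its value was seen. It lies in a row of neighbouring genes, MMP7, MMP20, MMP27, MMP1, MMP3, MMP12 and MMP13, which include a matrilysin, collagenases, a stromelysin and the macrophage elastase. All 7 of these had values above 0 as headed (median 0.07), and 3 of 7 with array A exchanged (median -0.04). None of the 7 was above background.

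TIMP2 both inhibits MMPs and assists in the activation of MMP2 at the cell surface. Its ratios were -0.81 on array A, 0.44 on array B, -0.28 on array C and -0.11 on array D. They followed those of MMP2 in sign on every array. So did those of CTSA and of further genes not above background, so these signs are not particular to the pair. The mean of TIMP2 was -0.19 as headed and 0.22 with array A exchanged (standard error 0.19 each), and 0.02 without array A. The log2 level of TIMP2 differed more between replicates than between groups, with 12.91, 12.01, 10.18 and 10.68 in the control on arrays A to D and 12.10, 12.45, 9.90 and 10.57 with NEFAs. It was thus high on arrays A and B and low on C and D in both groups. TIMP3, the inhibitor bound to the matrix, was not above background on any array and had ratios of 0.06, -0.10, -0.04 and -0.02.

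Cathepsins were the family with the largest share above background, 5 of 8. CTSH, an aminopeptidase of lysosomes, was bright on every array, with log2 levels of 15.06 to 15.15 in the control and 14.78 to 15.17 with NEFAs. Its ratios were -0.05, 0.02, -0.34 and -0.04, near 0 on 3 arrays and below on array C, with a mean of -0.10 as headed and -0.08 exchanged. CTSC, which activates granule serine proteases in blood cells, had ratios of -0.13, -0.06, -0.16 and 0.07 and a mean of -0.07 as headed and 0.00 exchanged. CTSK, a collagen-degrading cathepsin of osteoclasts and fibroblasts, had 0.03, -0.09, 0.08 and 0.32, with means of 0.08 and 0.07. For these 3 genes the standard errors were 0.08 to 0.10, among the smallest of the genes above background, and array A made little difference to the estimate.

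CTSA and CTSS were less steady. CTSA, which protects the lysosomal enzymes neuraminidase and beta-galactosidase, had ratios of -1.10, 1.15, -0.53 and -0.06 on arrays A to D. Arrays A and B were opposed and nearly equal in size. The mean was -0.13 as headed and 0.41 exchanged (standard errors 0.34 and 0.30), and neither passed. CTSS, the cathepsin that trims the invariant chain in antigen presentation, had ratios of 0.95, -0.16, -0.46 and 0.08. Array A was far above the others, and the mean was 0.10 as headed (standard error 0.22) and -0.37 exchanged (standard error 0.17, unadjusted p = 0.0689 from limma). These values are for the brightest of the 3 probes of CTSS. The others, not above background, had 0.09 and -0.08 as headed and 0.01 and -0.09 exchanged. CTSK and CTSS are adjacent genes, and their ratios shared a sign on arrays A, B and D and differed in sign on array C.

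**Figure D3:**
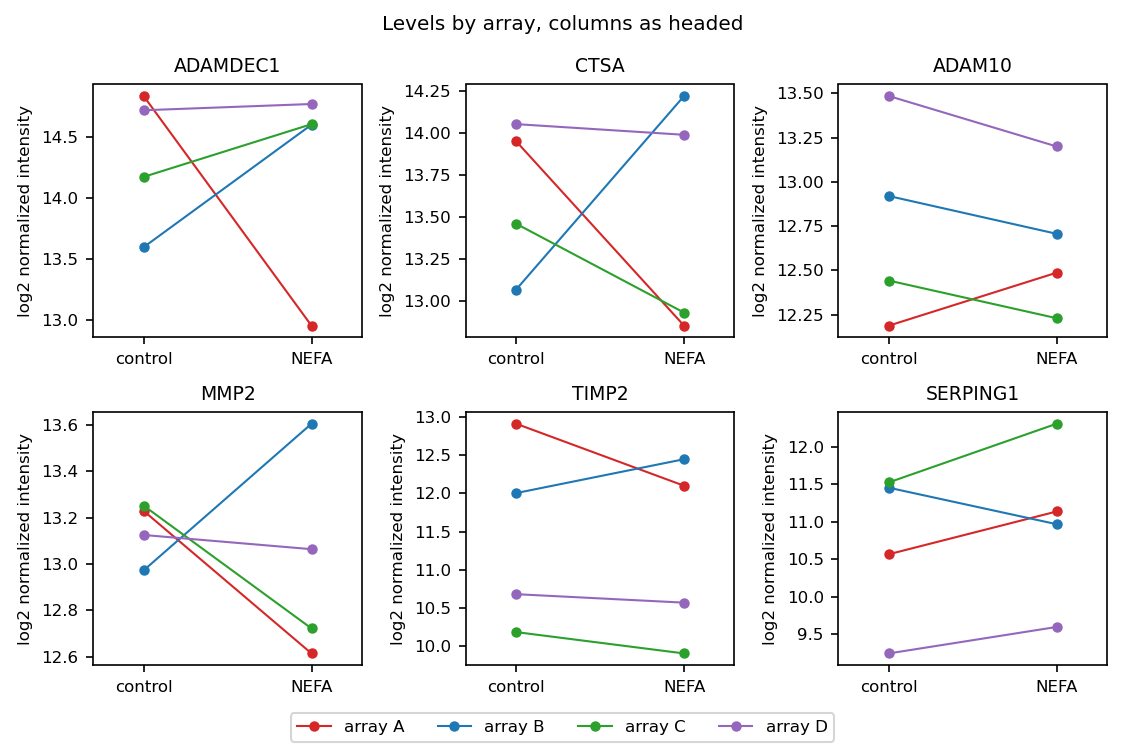
Log2 normalized intensity in the control and with NEFAs for ADAMDEC1, CTSA, ADAM10, MMP2, TIMP2 and SERPING1, 1 line per array with the columns as headed and a separate vertical scale, not starting at 0, for each gene. In all 6 panels the line of array A slopes against that of array B, and the TIMP2 control levels of 12.91 and 12.01 on arrays A and B stand above those of 10.18 and 10.68 on C and D.

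Of the 19 serpins, 3 were above background. SERPING1, the inhibitor of complement C1 and of plasma kallikrein, had ratios of 0.57, -0.49, 0.78 and 0.35. Array B alone was below 0, and the mean was 0.30 as headed (standard error 0.21, unadjusted p = 0.189 from limma), 0.02 with array A exchanged and 0.22 without array A. SERPINB1, an inhibitor of neutrophil elastase and cathepsin G that acts inside cells, had 0.20, -0.19, 0.68 and 0.23, a mean of 0.23 (standard error 0.14) as headed and 0.13 exchanged. SERPINF1, also called PEDF, which has no protease inhibitor activity and restrains blood vessel growth, had 0.22, -0.28, 0.59 and -0.21. All 3 serpins were above 0 on arrays A and C and below 0 on array B. The 6 measured granulosa markers, 4 of them above background, had summed levels of 11319, 9283, 18521 and 7326 with NEFAs on arrays A to D as headed, and of 8564, 11986, 13270 and 4688 in the control. Their sum was thus also higher with NEFAs on arrays A, C and D and lower on array B, as were SERPING1 and SERPINB1. Among the markers only AMH had this pattern of signs (0.56, -0.56, 0.59 and 0.97). FST had -0.46, 0.48, -0.25 and 0.10, and NR5A2 had -0.25, 0.39, -0.63 and 0.14. The median log2 ratio of the 6 markers was -0.05, 0.03, -0.02 and 0.12 on arrays A to D. The sum therefore does not stand for the list, and its part in these values was not tested. Over the family 15 of 19 values were above 0 as headed (median 0.02), 12 of them from genes not above background. With array A exchanged 13 of 19 were above 0 (median 0.05), and 10 of the 19 turned sign between these readings. SERPINE2, an inhibitor of thrombin and urokinase, and SERPINH1, the collagen chaperone HSP47, were among the 16 not above background, which had means of -0.23 to 0.12 as headed.

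A dye term was also added to the fit with array A exchanged. Then 6 of 74 genes passed, 4 higher and 2 lower, where 6.71% of all genes did (3.00% higher and 3.71% lower). ADAMDEC1 had an adjusted p = 0.0367 and ADAMTSL3 one of 0.0864 in limma. The other 4 were CTSA (0.41, unadjusted p = 0.00174 from limma), ADAMTS2, a procollagen peptidase (0.54), ADAM11, which lacks a working protease site (-0.32), and CTSS (-0.37). ADAMTS2 had 0.03 as headed and 0.38 without array A (unadjusted p = 0.177 from limma). ADAM11 turned sign, with 0.13 as headed and -0.12 without array A. Neither gene was above background. The difference between dyes in that fit, as Cy5 over Cy3, was -0.71 for CTSA, -0.60 for ADAMDEC1, -0.46 for MMP2, -0.41 for TIMP2 and 0.55 for SERPING1 on the log2 scale. It was 0.00 for ADAM10. For CTSA, MMP2, TIMP2 and SERPING1 the difference between dyes was thus larger in size than the estimate for NEFAs (0.41, 0.16, 0.22 and 0.02).

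As headed and without array B, 12 of the 74 genes passed, 4 higher and 8 lower, where 14.7% of all genes did. Among them were CTSA (-0.56), TIMP2 (-0.40), MMP2 (-0.40), MMP9 (-0.29), SERPINB1 (0.37), ADAMTS15 (0.35) and SERPING1 (0.57). If array A has its columns exchanged, the 3 arrays left all set Cy5 over Cy3 in that fit, and NEFAs and dye cannot be told apart in it. If array A is right as headed, the 3 arrays hold both dye orientations. Which reading is right is not settled. With array A exchanged, leaving out array C gave 6 genes, where 6.76% of all genes passed. Leaving out array B gave 1, ADAM10, which was then lower (-0.27), where 3.73% of all genes passed.

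Different probes of a gene did not always share a direction. Of the 8 genes with more than 1 probe, CTSZ, a lysosomal carboxypeptidase, differed most: its dimmer probe had 0.44 as headed (unadjusted p = 0.0139 from limma) with ratios of 0.57, -0.01, 0.69 and 0.52, and its brighter probe -0.09 with -0.61, 0.82, -0.20 and -0.38. Neither probe was above background. Both probes of CTSC were, and had -0.07 and -0.18. The 5 probes of ADAM15 ran from -0.38 to 0.08. Over 1511 genes with 2 probes the log2 levels of these had r = 0.09, a description across genes, which are not independent replicates, so the match of spots to genes is itself uncertain and a gene name here stands for a probe.

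**Figure D4:**
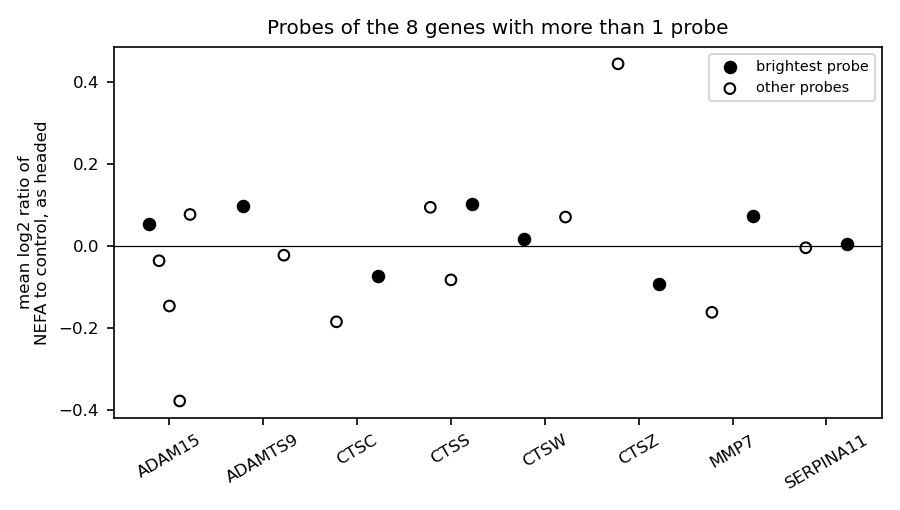
Mean log2 ratio (NEFA over control, as headed) for each probe of the 8 genes that had more than 1, with the brightest probe filled and the others open. The probes of CTSZ lie at 0.44 and -0.09, those of ADAM15 from -0.38 to 0.08, and those of CTSC at -0.07 and -0.18.

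Proteases and inhibitors outside these families were set beside them, 69 of 102 listed genes being measured. As headed 0 of 69 passed. With array A exchanged 2 were lower and 2 higher, where 4.16% of all genes passed. No adjusted p is given for these lists, which were written with earlier results of these data known. Over all probes with array A exchanged, 2175 had an unadjusted p under 0.05 and 2 an adjusted p under 0.05 in limma. Both lower genes belonged to the plasminogen system, in which urokinase turns plasminogen into a protease that also activates MMPs. TFPI2, an inhibitor of plasmin, had ratios of 0.79, -0.31, -0.69 and -0.57, with a mean of -0.19 as headed (unadjusted p = 0.458 from limma), and fell by 0.59 on the log2 scale with array A exchanged (standard error 0.10, unadjusted p = 0.0010 from limma). Its array A was opposed in sign to the other 3, and without array A TFPI2 was also lower (-0.52, unadjusted p = 0.0055 from limma). PLAU, the urokinase itself, had 0.39, -0.28, -0.47 and -0.24, with a mean of -0.15 as headed (unadjusted p = 0.353 from limma). It fell by 0.34 exchanged (unadjusted p = 0.0048 from limma) and by 0.33 without array A (unadjusted p = 0.0233 from limma). Of 11 measured genes of the plasminogen system 10 had values below 0 with array A exchanged and 7 as headed, where 5378 and 5788 of all 9964 genes did, and 5 of the 11 were above background. The list had a median of -0.09 both ways, where that over all genes was -0.01 exchanged and -0.02 as headed.

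The higher genes were A2M, the inhibitor alpha-2-macroglobulin that traps proteases of all classes (0.33, unadjusted p = 0.0197 from limma), and SORT1, the sorting receptor sortilin (0.39, unadjusted p = 0.0388 from limma), which was not above background. Neither passed as headed (0.05 and 0.11) or without array A (0.25 and 0.34). Of 16 measured lysosome partners of the cathepsins 10 were above background, and 12 of 16 had values above 0 with array A exchanged and 8 as headed. The neuraminidase NEU1, which CTSA protects, had 0.13 as headed and 0.11 exchanged and was above 0 on all 4 arrays as headed, and it did not pass. Of 22 measured substrates and partners of ADAMs and MMPs and 6 cystatins and other cysteine protease inhibitors, 0 passed under either reading. The genes with the smallest p as headed in these 2 lists were MEP1A, a metalloprotease of epithelia (-0.18, unadjusted p = 0.0624 from limma), and the cystatin CST6 (0.13). In the list of other inhibitors it was ITIH1, a chain that binds hyaluronan in the cumulus matrix (-0.12), and in the plasminogen list the thrombin receptor F2R (-0.17).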

How the data were processed

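Per the file headers and the methods, the authors amplified and labelled the RNA, hybridized EmbryoGENE porcine arrays and read the spots with Array-Pro, and the deposited intensity values are raw means and local background means per spot and channel, not normalized. On each array 60 to 121 probes carried the mark of an ignored spot and were left out. The highest probe signal per array was 40253 to 43025. Compression of the ratios of the brightest probes, such as that of CTSH, was not tested. The number of arrays, 4, limits the precision. Background was corrected by normexp (offset 50), because the subtraction of the methods leaves values with no logarithm. Loess within arrays and quantile normalization across them followed, all in limma 3.58.1 (R 4.3.3). The authors also used limma, per the labels, with no version given. For each of 43794 probes the mean log2 ratio (NEFA over control) was tested against 0 by a two-sided moderated test (eBayes), with Benjamini-Hochberg adjustment over all probes. As headed 612 probes had p under 0.05, 342 of them past 1.2-fold and 0 at an adjusted p of 0.05, and with array A exchanged these were 2175, 1602 and 2. The direction was set by the channel fields. By these, 76.5% of 596 genes matched to the study's list of changed genes have the listed sign. By the titles it is 23.5%, and with array A exchanged, the second reading, 66.1%. The study's list came from these same arrays, so the match speaks only to the orientation the authors used. It cannot show which dye carried the NEFA RNA, or decide between the 2 readings of array A. Genes were named by matching the spot number to the platform annotation (13146 of 43794 probes have 1 symbol, the rest none), under which 45 ribosomal protein probes had a median log2 level of 14.2 against 8.08 for all named probes. Neighbouring genes are by RefSeq order. A table of ratios with 4 columns was not used, since its rows could not be matched to spots by number or order. The gene names rest on a match by spot number as well, so that doubt extends to them.

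Named genes were those past the criterion under either reading, in each family up to 4 genes above background with the smallest p as headed and up to 3 exchanged, every TIMP, and in each other list the smallest p and any gene past the criterion. ADAMTS2, ADAM11, CTSZ, MMP27 and ADAM15 were added after their values were seen. The genes, lists and tests were chosen with earlier results of these data known. Of 153 negative control spots, 1 with an ignored mark was left out after its effect was seen. Each replicate was 1 plate on a separate day. The fit was tested on simulated data with independent noise smaller than that seen here, no dye effect and no array of opposed sign. That test does not bear on how the fit behaves on these arrays.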

Additional observations from a re-analysis of the deposited data

Results flagged for a closer look

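Of the 18 named genes, 1 had an array that lay far from the other 3 by Dixon's ratio. Chance alone marks about 1 in 20 such groups where genes are not chosen by their ratios. The named genes were mostly chosen by p from the same ratios, and ADAM10 also by its p with array A exchanged. That rate therefore does not hold for them. ADAM10 had a ratio (log2, NEFA over control) of 0.30 on array A as headed, against -0.21, -0.21 and -0.28 on arrays B, C and D, a gap of 0.876 of the whole range. With the channels of array A exchanged its value there is -0.30, beside the other 3.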

How the results depend on the processing

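As headed, 0 of the 74 genes and 0 of the 69 other proteolysis genes passed when the background was subtracted or not corrected, when arrays were centred on the median rather than by loess, without normalization between arrays, with a dye term, with an intensity trend and robust prior, and with all probes of a gene averaged. Over detected probes alone 0 of 16 and 0 of 21 passed. Without pairing the RNAs by array (no replicate block) the counts were also 0. Leaving out 1 replicate gave 0 to 12 of the 74 and 0 to 14 of the 69, the highest without replicate 2, where 14.7% of all genes passed, against 0.271% to 3.12% in the other 3 fits. Exchanging the channels of array A gave 2 and 4 (4.16% of all genes), and 6 and 5 with a dye term as well (6.71%).

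The alternatives on the exchanged reading were chosen after seeing the data, apart from the dye term and leaving out replicates 2 to 4. Detected probes only gave 1 of 16, where 9.72% of detected genes passed, and ADAMTSL3 was not among them. Leaving out 1 replicate gave 1 to 6 of the 74 and 2 to 6 of the 69, where 3.12% to 6.76% of all genes passed. Without the replicate block the 69 other genes gave 0 and the 74 gave 3 (ADAMDEC1, ADAMTS2 and ADAMTSL3), where 1.53% of all genes passed. ADAMDEC1 passed under each of these but leaving out replicate 2 (0.79). ADAM10 passed without replicate 2 (-0.27) and without replicate 3 (-0.27), and had -0.11 without normalization between arrays.

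Signs as headed turned when array A was exchanged, with or without a dye term, for ADAM12 (-0.0087), ADAMDEC1 (0.84), CTSA (0.41), CTSS (-0.37), MMP2 (0.16), SERPINF1 (-0.029) and TIMP2 (0.22). Without normalization between arrays ADAMDEC1 (0.082) and CTSH (0.051) turned. Over the fits that left out 1 replicate, ADAM12 ran from -0.022 to 0.21, ADAMDEC1 from -0.47 to 0.50, ADAMTS15 from -0.024 to 0.35 and ADAMTSL3 from -0.022 to 0.26. CTSA ran from -0.56 to 0.19, CTSS from -0.18 to 0.29, MMP2 from -0.40 to 0.014, SERPINF1 from -0.087 to 0.20, TIMP2 from -0.40 to 0.018 and TIMP3 from -0.053 to 0.00042. The cause was not tested.

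Keeping the negative control spot with an ignored mark left 15 of the 74 and 2639 of all genes above background. Of the 74 genes 58 were not above background, so their ratios set no limit on a change.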
